A study of Mus musculus and Rattus norvegicus with 26 samples.

Results

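Introns numbered 30 or higher can only belong to transcripts with at least 31 exons, so the set examined here holds introns of the genes with the most exons. They were taken from 6 lists of intronic contigs by the number in the intron label (intron 1 is the first intron of the RefSeq transcript), with no use of read counts. The set held 4041 of 112345 listed contigs. These lay in 3445 of 85860 listed introns, counted in each list, where an intron is 1 numbered intron of 1 RefSeq transcript. In the mouse lists they came down to 2226 distinct introns of 484 host genes, and in the rat lists to 266 distinct introns of 139 host genes.

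The series surveyed cytoplasmic intron-sequence retaining transcripts (CIRTs), which are spliced mRNAs outside the nucleus that still hold part of an intron. The dendrites and somas came from primary hippocampal cultures of C57BL/6 mice and Sprague-Dawley rats, both E18 by the labels although a library table of the study gives another day for rat, the dendrites as batches of mechanically severed processes and the somas as single cell bodies. Brown adipose tissue (BAT) cells were single cells picked by their shape from interscapular brown fat of E17.5 CD-1 mice, and cardiomyocytes came from the ventricles of an E14.5 transgenic C57BL/6 embryo, hemizygous for a cell cycle reporter (mAG-hGem under the CMV promoter), by flow sorting. Each list pooled libraries of its group, of which the labels give 3 of mouse dendrites, 3 of mouse somas, 6 of BAT cells, 9 of cardiomyocytes, 2 of rat dendrites and 3 of rat somas. The lists do not state how many were pooled, and the published account counts fewer BAT cells and cardiomyocytes. All libraries passed 3 rounds of aRNA amplification, in which poly(T) primers start the copying and each round shortens the product. Somas, BAT cells and cardiomyocytes held their nuclei, so that nuclear pre-mRNA and cytoplasmic RNA cannot be told apart in those lists. The lists give 1 summed read count per intron, so no value below has a replicate error and no difference between groups was tested. The intervals given are 95% Wilson or order-statistic intervals and cover counting error only, while several introns of 1 gene share their transcript.

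As background, a pre-mRNA with many exons is spliced piece by piece, and the genes concerned code for very large proteins: cytoskeletal linkers such as dystrophin and the plakins, the sarcomere ruler titin, the calcium release channels, dynein heavy chains, giant ubiquitin ligases, collagens and laminins. Several span a large stretch of the genome because single introns are long. Retention of an intron in mRNA usually brings in premature stop codons, and in neurons some retained introns are known to stay in cytoplasmic mRNA and to carry elements that direct RNA into dendrites.

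The 5 sequences that follow are stretches that all 4 mouse lists covered in the same intron, and they are shown because few introns of the set were covered at the same place in all 4. They are genomic sequence of mm9 (NCBIM37) on the strand of the gene, written 5′ to 3′, and all mouse positions given are on that build and count from 1. Capitals mark runs of 8 or more adenines, and where such a run stood downstream within 300 nt of printed sequence the stretch was extended to it.
Birc6 intron 49: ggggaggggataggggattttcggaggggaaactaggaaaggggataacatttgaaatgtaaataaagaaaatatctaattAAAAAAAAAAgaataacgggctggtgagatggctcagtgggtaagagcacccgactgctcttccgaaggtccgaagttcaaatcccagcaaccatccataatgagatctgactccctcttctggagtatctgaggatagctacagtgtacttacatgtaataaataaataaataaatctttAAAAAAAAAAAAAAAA
Mycbp2 intron 52: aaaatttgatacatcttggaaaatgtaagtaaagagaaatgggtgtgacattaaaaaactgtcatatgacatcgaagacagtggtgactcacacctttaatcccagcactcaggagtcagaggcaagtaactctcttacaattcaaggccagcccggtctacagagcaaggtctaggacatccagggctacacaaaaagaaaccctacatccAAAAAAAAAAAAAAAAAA
Eprs intron 31: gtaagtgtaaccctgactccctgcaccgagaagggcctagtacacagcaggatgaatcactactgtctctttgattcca
Herc1 intron 74: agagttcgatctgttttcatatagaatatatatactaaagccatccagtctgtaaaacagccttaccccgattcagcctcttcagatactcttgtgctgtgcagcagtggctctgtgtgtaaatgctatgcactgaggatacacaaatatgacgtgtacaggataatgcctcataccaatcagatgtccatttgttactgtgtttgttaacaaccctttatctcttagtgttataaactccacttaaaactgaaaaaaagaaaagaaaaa
Nbas intron 36: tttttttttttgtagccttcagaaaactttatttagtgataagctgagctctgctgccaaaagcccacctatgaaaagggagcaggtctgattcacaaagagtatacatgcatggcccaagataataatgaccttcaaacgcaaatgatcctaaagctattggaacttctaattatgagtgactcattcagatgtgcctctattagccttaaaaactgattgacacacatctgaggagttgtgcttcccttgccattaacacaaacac
The Birc6 sequence lies at chr17:75044225-75044502 on the + strand, of which the first 90 nt were common to the 4 lists. The common stretch ends within a run of 10 adenines, and a run of 16 adenines ends 188 nt further downstream. The Mycbp2 sequence is chr14:103579321-103579550 (-), with 203 common nt followed within 27 nt by a run of 18 adenines. In both introns a genomic tract of adenines thus stood downstream of the common stretch. The Eprs stretch, chr1:187251796-187251874 (+), spanned 79 nt of an intron of 80 nt. The Herc1 stretch, chr9:66347480-66347749 (+), and the Nbas stretch, chr12:13441892-13442159 (+), held no run of 8 adenines, and the Herc1 stretch touched an exon that GENCODE annotates in a retained-intron transcript of Herc1. The Nbas stretch opened with a run of thymines, the complement of adenines on the other strand, and the libraries did not keep the strand.

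In the mouse lists the introns numbered 30 or higher made up much the same part of each list. They were 860 of 19477 introns of mouse dendrites (4.42%, interval 4.14% to 4.71%) and 476 of 10568 of mouse somas (4.5%, 4.13% to 4.92%). BAT cells held 1261 of 30018 (4.2%, 3.98% to 4.43%) and cardiomyocytes 544 of 13056 (4.17%, 3.84% to 4.52%). All 4 intervals overlapped. The rat lists held a smaller part, with 161 of 7426 introns in rat dendrites (2.17%, 1.86% to 2.52%) and 143 of 5315 in rat somas (2.69%, 2.29% to 3.16%). The RefSeq transcripts on which rat introns were numbered differ from those of mouse, and the part of this in the lower share was not tested. At the border of the set, intron 29 was listed 76, 37, 121 and 53 times and intron 30 was listed 63, 41, 99 and 42 times in mouse dendrites, mouse somas, BAT cells and cardiomyocytes. The highest intron number was 148 in mouse dendrites, 140 in mouse somas, 167 in BAT cells and 190 in cardiomyocytes, against 89 in rat dendrites and 105 in rat somas.

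The depth behind these introns differed widely between the lists. Listed intronic reads summed to 3086576 in mouse dendrites, 1855447 in mouse somas, 17858440 in BAT cells, 12201042 in cardiomyocytes, 1007530 in rat dendrites and 2094541 in rat somas. Introns numbered 30 or higher took 3.73% of them in mouse dendrites, 4.53% in mouse somas, 3.0% in BAT cells, 5.24% in cardiomyocytes, 1.48% in rat dendrites and 2.13% in rat somas. Of the marker genes looked up over all introns, 6 of 6 cardiomyocyte markers were listed in cardiomyocytes (2.37% of the listed reads, at most 0.058% in any other list), and no neuronal or glial marker was. Brown adipocyte markers took 0.343% in BAT cells, with Ucp1, Cidea, Pparg and Prdm16 listed. Neuronal markers took 0.572% in mouse somas and 0.383% in rat somas, but 0.00363% in mouse dendrites, where 4 of 6 were listed. Markers of other cell types were also listed. In mouse dendrites 5 of 5 glial markers had 163 reads in all, 4 of 6 cardiomyocyte markers 1172 and 3 of 6 brown adipocyte markers 361, each above the 112 reads of the neuronal markers. In BAT cells 4 of 6 neuronal markers had 10921 reads and 4 of 6 cardiomyocyte markers 10356, and in cardiomyocytes 3 of 6 brown adipocyte markers had 3505. The part of other cells in the results was not tested, and absence of a marker from a list of introns is not absence of its mRNA. Fewer cells of a type and less RNA per cell cannot be told apart in pooled libraries.

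Much of the set of large genes was reached. GENCODE holds 749 protein-coding mouse genes with a transcript of 31 exons or more, and 482 of them (64.4%, interval 60.9% to 67.7%) hosted a listed intron numbered 30 or higher in at least 1 mouse list. BAT cells reached 50.9% of these genes, mouse dendrites 43.1%, cardiomyocytes 30.2% and mouse somas 29.8%. These lists differed in size in the same order, with 10220, 8607, 6205 and 5895 listed genes. Hosts of the set were 3.75%, 3.76%, 3.64% and 3.78% of those genes. By gene symbol, 135 of the 484 mouse host genes appeared in 1 list, 121 in 2, 133 in 3 and 95 in all 4. Of the 106 host genes of rat dendrites, 71 (67%) were also hosts in mouse dendrites, where they were 21.9% of the hosts. Of the 87 hosts of rat somas, 46 (52.9%) were also hosts in mouse somas (20.6% of those). The same overlaps are not given for all listed genes, so sharing of these hosts cannot be set against that of other genes.

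Most hosts held 1 or 2 such introns and a few held many. Mouse dendrites listed 2.65 introns numbered 30 or higher per host gene on average, mouse somas 2.13, BAT cells 3.29, cardiomyocytes 2.41, rat dendrites 1.52 and rat somas 1.64. Hosts with a single one made up 48.1% in mouse dendrites, 50.7% in mouse somas, 39.4% in BAT cells and 47.3% in cardiomyocytes. In BAT cells 80 genes with at least 5 held 55.8% of the introns, and in cardiomyocytes 18 such genes held 33.5%.

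The hosts with the most introns differed from list to list. In mouse dendrites these were Dmd, which codes for the membrane-cytoskeleton linker dystrophin, with 21 introns, Lrp1b, a giant receptor of the low-density lipoprotein receptor family, with 18, and Gpr98, a giant adhesion receptor, with 16. In mouse somas they were Dmd with 19, Lrp1b with 14 and Reln, the secreted guide of neuronal migration, with 12. In BAT cells they were Utrn, the dystrophin homologue utrophin, with 23, Ttn (titin) with 22 and Herc1, a giant ubiquitin ligase, with 21. In cardiomyocytes they were Ttn with 40, Ryr2, the calcium release channel of the heart, with 33 and Dmd with 19. In rat dendrites Macf1, an actin-microtubule crosslinker, had 8, and Herc2, a ubiquitin ligase, and Fanca, a DNA repair protein, had 4 each, as did Ryr2. In rat somas the ubiquitin ligase Ubr4 had 5, and Cep290, a ciliary protein, and Dync2h1, the dynein heavy chain of ciliary transport, had 4 each, as did Vps13a, Itpr1 and Tpr.

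**Figure D1:**
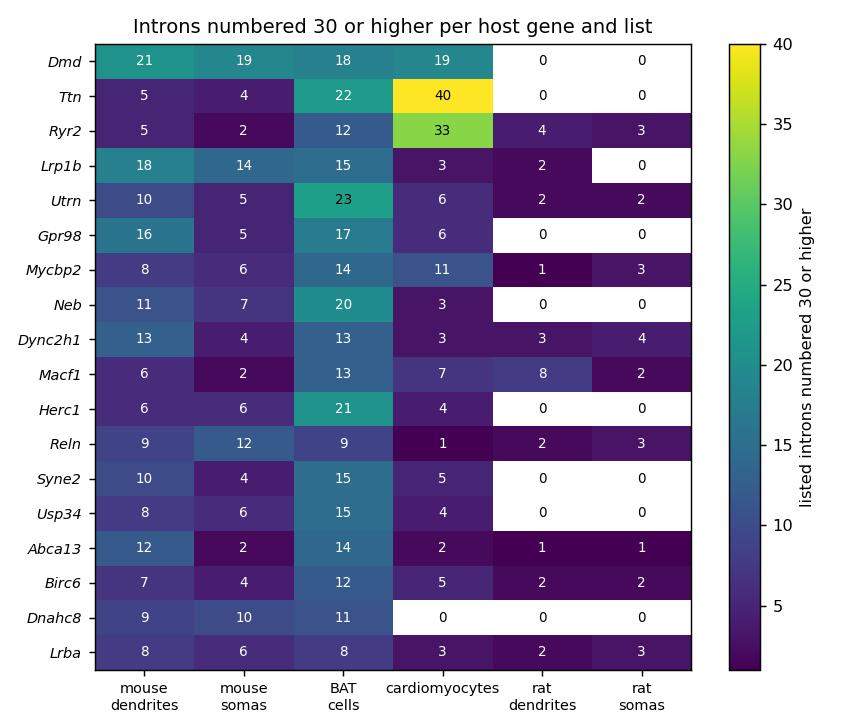
Number of listed introns numbered 30 or higher for the 18 host genes with the most of them, one row per gene and one column per list, with white cells for 0. Dmd was near 20 in all 4 mouse lists, whereas Ttn (40) and Ryr2 (33) were highest in cardiomyocytes and Lrp1b was lowest there among the mouse lists (3).

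Dmd had much the same number of listed introns in each mouse list. It had 21 listed introns in mouse dendrites, 19 in mouse somas, 18 in BAT cells and 19 in cardiomyocytes, out of 49 annotated ones numbered 30 or higher, and none in either rat list. These were 33 distinct introns, of which 7 were in all 4 lists and 12 in a single list. Their reads summed to 3850 in mouse dendrites, 2007 in mouse somas, 14405 in BAT cells and 55166 in cardiomyocytes. Per 1000000 listed reads this was 1247, 1082, 807 and 4521, so that the number of introns was alike in the 4 lists while the reads stood highest in cardiomyocytes. The contigs were scattered along these introns, with 53 contigs in the 21 introns of mouse dendrites and 9 contigs within intron 55 (126355 nt) in cardiomyocytes. None of the 7 introns found in all 4 lists held a stretch that the 4 lists shared.

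Ttn and Ryr2, both needed for the heartbeat, stood out in cardiomyocytes. Ttn had 5 listed introns with 239 reads in mouse dendrites, 4 with 11 in mouse somas, 22 with 1906 in BAT cells and 40 with 82516 in cardiomyocytes. The introns were numbered on 2 RefSeq transcripts, which together hold 445 introns numbered 30 or higher, and the counting may have split reads between them. The largest count was 19856 reads in intron 85 of cardiomyocytes, and of 40 introns 25 had at least 256 reads there, against 3 of 22 in BAT cells. Intron 126 had 10974 reads in a contig of 197 nt that spanned most of its 221 nt.

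Ryr2 had 5 listed introns with 196 reads in mouse dendrites, 2 with 6 in mouse somas, 12 with 1774 in BAT cells and 33 with 94343 in cardiomyocytes. The 33 were 44.0% of its 75 annotated introns numbered 30 or higher. Introns 81, 53 and 75 had 29463, 23436 and 9375 reads in cardiomyocytes, and no other mouse list held any of these 3 introns. The contig in intron 81 spanned 1506 of 1507 nt and that in intron 91 spanned 1719 of 1720 nt. Ttn and Ryr2 together took 27.7% of the reads of these introns in cardiomyocytes, and both are among the marker genes of that cell type.

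Lrp1b and Reln, which neurons express, were lowest in cardiomyocytes among the mouse lists. Lrp1b had 18 listed introns with 3374 reads in mouse dendrites, 14 with 7154 in mouse somas, 15 with 16886 in BAT cells and 3 with 95 in cardiomyocytes. In rat dendrites it had 2 with 4 reads. Reln had 9 with 2617 reads in mouse dendrites, 12 with 6705 in mouse somas, 9 with 1995 in BAT cells and 1 with 7 in cardiomyocytes, and in rat 2 with 100 in dendrites and 3 with 537 in somas. Both genes thus had many listed introns in mouse neurons and in BAT cells and few in cardiomyocytes. In mouse somas the Reln reads lay mostly in introns 42, 53 and 46, with 1760, 1683 and 1639 reads, and a contig in intron 42 touched an annotated pseudogene on the same strand and an antisense transcript.

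**Figure D2:**
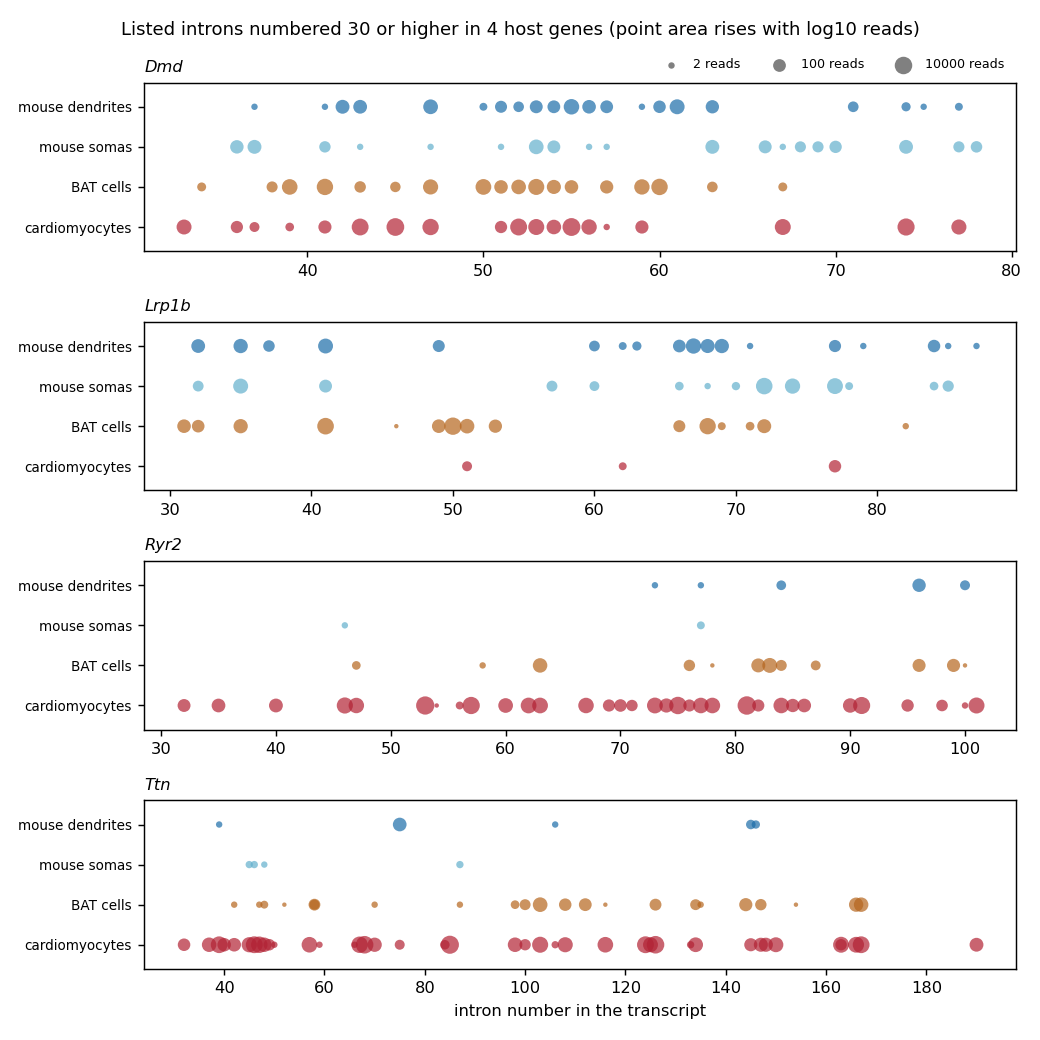
Position of listed introns numbered 30 or higher along 4 host genes, one panel per gene, with the intron number on the horizontal axis, one line per mouse list and a point area that rises with the log10 of the reads. Titin introns carry the numbers of 2 transcripts. Dmd points spread over all 4 lines, whereas Ryr2 and Ttn points crowd in the cardiomyocyte line (33 and 40) and Lrp1b has 3 points there.

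Utrn, Neb and Herc1 had more listed introns in BAT cells than in any other list. BAT cells also held the most introns of the whole set (1261, against 860 in mouse dendrites, 476 in mouse somas and 544 in cardiomyocytes). Utrn had 10, 5, 23 and 6 listed introns in mouse dendrites, mouse somas, BAT cells and cardiomyocytes, with 227, 24, 16710 and 2428 reads. Neb, which codes for the thin filament protein nebulin of skeletal muscle, had 11, 7, 20 and 3 with 3521, 300, 5250 and 12 reads in the same order. Herc1 had 6, 6, 21 and 4, but its reads were highest in mouse dendrites, with 10308, 712, 1266 and 908. Of the 10308 reads in dendrites 10159 lay in intron 30 alone.

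Single introns took a large part of the reads in every list. In mouse dendrites the highest were intron 30 of Herc1 with 10159 reads, intron 30 of Thada with 2861 and intron 30 of Bai3, an adhesion receptor of neurons, with 2456. Herc1 intron 30 had a single contig of 535 nt at chr9:66283312-66283846 and took 8.83% of the reads of these introns in the list. It had 18 reads in BAT cells and was not listed in mouse somas or cardiomyocytes. In mouse somas the highest were intron 53 of Fry with 8478 reads, intron 72 of Lrp1b with 3483 and intron 30 of Lrrc16a, a regulator of actin capping, with 3470. Fry intron 53 was in all 4 mouse lists but had 18 reads in mouse dendrites, 62 in BAT cells and 56 in cardiomyocytes.

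In BAT cells the highest were intron 75 of the deubiquitinase Usp34 with 53384 reads (9.96%), intron 30 of Myo3a with 25841 (4.82%) and intron 40 of Acaca with 23382 (4.36%). Usp34 intron 75, with 1 contig of 797 nt at chr11:23373388-23374184, was in no other mouse list. Acaca codes for the acetyl-CoA carboxylase that commits carbon to fatty acid synthesis, and its intron 40 had 113 reads in cardiomyocytes and was not listed in mouse neurons. In cardiomyocytes the highest were Myo3a intron 30 with 52869 reads (8.27%) and the Ryr2 introns 81 and 53.

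In rat dendrites intron 31 of Arhgef12, a guanine nucleotide exchange factor, and intron 53 of Dync2h1 had 1609 reads each (10.8% each), and intron 36 of Myom2, a muscle M-band protein, had 1120. In rat somas intron 51 of Dock1, an activator of Rac, had 6956 (15.6%), intron 65 of the ubiquitin ligase Birc6 had 4135 and intron 35 of Thada had 3765. In both rat lists a single intron thus held over 10% of the reads of the set.

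Myo3a codes for a class III myosin of sensory hair cells, and its intron 30 was covered in the same place in all 4 mouse lists, over 3408 nt, with 1481 reads in mouse dendrites, 467 in mouse somas, 25841 in BAT cells and 52869 in cardiomyocytes. The contigs there, near chr2:22442806-22446213, lay on annotated pseudogenes of the other strand and were 97.4% identical over 3260 nt to the mitochondrial chromosome of the same assembly. The only other listed intron that matched it, of all mouse introns searched, was intron 14 of Stxbp4, with 90.7% to 92.6% identity. The part of mitochondrial RNA in these counts was not tested. Without Myo3a intron 30 the introns numbered 30 or higher took 2.86% in place of 3.0% of the listed reads in BAT cells and 4.81% in place of 5.24% in cardiomyocytes.

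Reads per intron varied widely within each list. In mouse dendrites the median was 21 reads (interval 17 to 26) and the quartiles 4 and 92, against a median of 25 (24 to 26) for introns 1 to 29. In mouse somas it was 26.5 (20 to 35), against 22 (20 to 22). In BAT cells it was 22 (18 to 26), against 29 (28 to 30), and the 2 intervals did not overlap. In cardiomyocytes it was 90 (68 to 139), with quartiles of 8 and 748, against 52 (48 to 56), and these intervals did not overlap either. In rat dendrites it was 10 (7 to 15), against 14 (14 to 16), and in rat somas 28 (14 to 64), against 24 (22 to 28). The introns numbered 30 or higher thus had more reads than introns 1 to 29 in cardiomyocytes and fewer in BAT cells, and elsewhere the intervals touched or overlapped.

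The order in cardiomyocytes turned when both sets came from the same transcripts. Introns 1 to 29 of the host transcripts had a median of 159 reads (111 to 234) there, above the 90 of introns numbered 30 or higher, with overlapping intervals. In BAT cells they had 32 (28 to 37), in mouse dendrites 24 (20 to 28), in mouse somas 28 (17 to 40), in rat dendrites 12 (6 to 21) and in rat somas 49.5 (13 to 99). Against their own transcripts, the introns numbered 30 or higher therefore had the lower median in all 6 lists, and the intervals did not overlap in BAT cells.

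Many introns rested on very few reads. The share with at most 2 reads was 18.0% in mouse dendrites, 17.2% in mouse somas, 13.8% in BAT cells, 12.5% in cardiomyocytes, 24.2% in rat dendrites and 11.9% in rat somas, where introns 1 to 29 had 16.2%, 17.5%, 12.3%, 12.6%, 17.4% and 14.1%. Introns with a single read occurred among them only in BAT cells (36) and cardiomyocytes (8). Libraries were sequenced as pairs, and whether a count of 2 was 1 pair was not tested. At the other end, 38.8% had at least 256 reads in cardiomyocytes (211 introns), against 18.5% in BAT cells, 14.1% in mouse somas and 11.7% in mouse dendrites. Introns 1 to 29 had the same order of lists, with 32.2%, 22%, 13.2% and 12.9%.

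**Figure D3:**
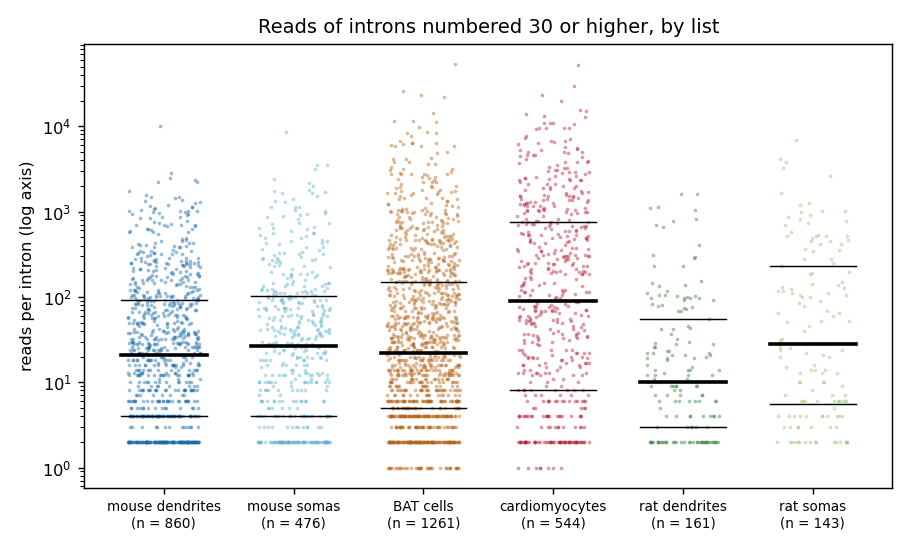
Reads of each intron numbered 30 or higher on a log axis, one point per intron and one column per list, with a thick line at the median and thin lines at the quartiles. The cardiomyocyte column is the highest (median 90, upper quartile 748), and rows of points at 2 reads are dense in every list.

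Contigs of introns numbered 30 or higher had median lengths near those of all contigs of introns 1 to 29. The median was 257 nt in mouse dendrites against 256 nt for introns 1 to 29, 284.5 against 277 in mouse somas, 260.5 against 274 in BAT cells and 290.5 against 282 in cardiomyocytes. In rat dendrites it was 266 against 278.5 nt and in rat somas 299.5 against 303 nt. The interval of the median was 247 to 267 nt in mouse dendrites, and it excluded the value for introns 1 to 29 in BAT cells only (247 to 270 nt against 274). Against contigs of introns 1 to 29 of the same host transcripts the set was shorter in cardiomyocytes (290.5 nt, 254 to 318, against 345 nt, 310 to 372) and in BAT cells (against 272 nt, 262 to 284), with intervals that overlapped. It was also shorter in rat somas (299.5 against 324 nt) and rat dendrites (266 against 273.5 nt). In mouse dendrites (257 against 251 nt) and mouse somas (284.5 against 281 nt) it was longer. The deposited lists of whole cells were not limited to contigs of at most 400 nt, a limit set against nuclear RNA. In the set 33.1% of contigs in mouse somas, 31.7% in BAT cells, 37.3% in cardiomyocytes and 34.0% in rat somas were longer, and without them 353 of 528, 1055 of 1544, 396 of 632 and 99 of 150 contigs remained. Means with their SD over contigs ran from 341 ± 226 nt (n = 167) in rat dendrites to 414 ± 374 nt (n = 632) in cardiomyocytes. The longest contig was Myo3a intron 30 in each mouse list, with 3535 to 3867 nt.

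Introns numbered 30 or higher were more often covered by a single contig. In mouse dendrites 88.1% (85.8% to 90.1%) had 1 contig, against 79.6% of introns 1 to 29, and in BAT cells 85.8% (83.8% to 87.6%) against 77.4%. In mouse somas it was 91.6% against 85.6%, in cardiomyocytes 88.6% against 85.2%, in rat dendrites 96.3% against 89.5% and in rat somas 95.1% against 90.1%. Introns 1 to 29 of the same host transcripts had a single contig in 81.8% of cases in mouse dendrites, 85.7% in mouse somas, 79% in BAT cells and 84.7% in cardiomyocytes. The listed introns numbered 30 or higher were shorter, with a median annotated length of 2892 nt in mouse dendrites against 3460 nt for listed introns 1 to 29 of transcripts with at least 30 introns. The part of length in the difference was not tested.

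The contigs spanned a small part of most introns. A contig joins neighbouring reads across gaps, so its span is not the length that was read. In introns numbered 30 or higher of mouse dendrites the median span was 10.2% of the annotated intron, in mouse somas 11.9%, in BAT cells 13.4% and in cardiomyocytes 15.0%. For introns 1 to 29 of transcripts with at least 30 introns it was 9.19%, 9.21%, 12.8% and 11.2%. Contigs spanned 90% or more of the intron in 8 cases in mouse dendrites and 8 in mouse somas, but in 115 (9.42%) in BAT cells and 33 (6.33%) in cardiomyocytes. For introns 1 to 29 of the same transcripts the share was also higher in BAT cells (6.33%) and cardiomyocytes (4.46%) than in mouse dendrites (0.808%) and somas (1.01%). Ryr2 introns 81 and 91 were among those spanned from end to end. Such a span could rest on few reads, as in Neb intron 62 of BAT cells (452 of 453 nt, 5 reads). Of the contigs of introns numbered 30 or higher, 3.43% in mouse dendrites, 8.71% in mouse somas, 4.34% in BAT cells and 7.59% in cardiomyocytes touched an annotated exon of some transcript, mostly of the host gene itself.

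The annotation also gives the introns that were not listed. Of 9393 introns numbered 30 or higher in transcripts with at least 1 listed intron, 8.93% (8.37% to 9.53%) were listed in mouse dendrites, against 11.5% (11% to 12%) of introns 1 to 29 of the same transcripts. In mouse somas it was 6.1% of 7508 (5.58% to 6.66%) against 6.95% (6.55% to 7.38%). In BAT cells it was 12.4% of 9838 (11.8% to 13.1%) against 15.3% (14.8% to 15.8%), and in cardiomyocytes 6.99% of 7454 (6.43% to 7.59%) against 9.03% (8.55% to 9.52%). Introns numbered 30 or higher were thus listed less often than earlier introns of the same transcripts, with intervals that did not overlap in 3 of the 4 lists and overlapped in mouse somas. The direction depended on which transcripts were taken. In transcripts with at least 1 listed intron numbered 30 or higher, a choice that raises the share of these introns by construction, the listed share of introns numbered 30 or higher minus that of introns 1 to 29 was -0.971 percentage points in mouse dendrites and -2.04 in BAT cells, but 2.37 in mouse somas and 0.385 in cardiomyocytes.

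**Figure D4:**
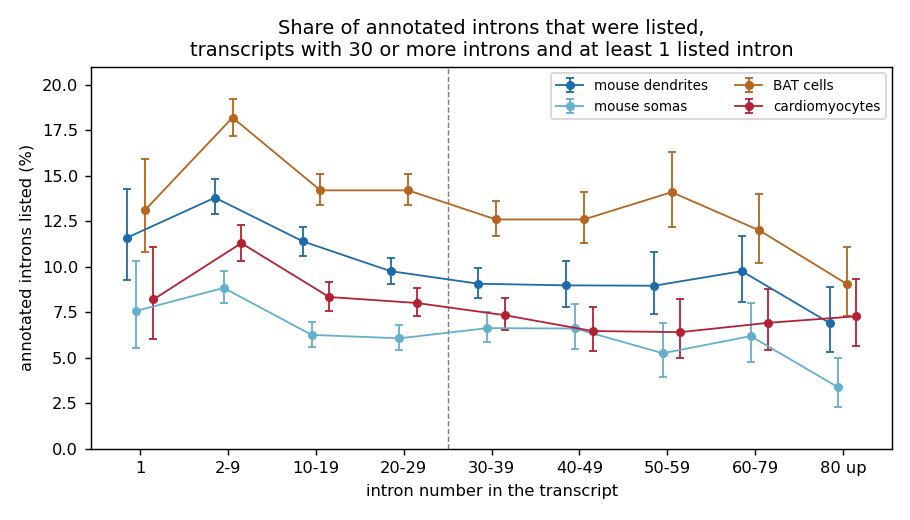
Share of annotated introns that were listed against intron number, for mouse transcripts with 30 or more introns and at least 1 listed intron, one line per list with 95% Wilson intervals and a dashed line at the lower border of the set. The share is highest at introns 2 to 9 (18.2% in BAT cells, 13.8% in mouse dendrites) and changes little between introns 30 and 79.

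Within the set the share changed little up to intron 79 and was lower from intron 80 in mouse somas and BAT cells. In mouse dendrites 9.07% of introns 30 to 39, 8.98% of introns 40 to 49, 8.96% of introns 50 to 59 and 9.76% of introns 60 to 79 were listed. Introns 80 and higher were listed in 6.91% of cases, and their median length was 534 nt against 1156 nt for introns 30 to 39. In mouse somas the share fell from 6.63% (5.85% to 7.51%) at introns 30 to 39 to 3.37% (2.28% to 4.97%) at introns 80 and higher, and in BAT cells from 12.6% (11.7% to 13.6%) to 9.04% (7.3% to 11.1%), and neither pair of intervals overlapped. In cardiomyocytes the share of introns 80 and higher was 7.28%, near the 7.34% of introns 30 to 39. Most members lay well before the 3′ end, with a median of 11 further introns downstream in mouse dendrites, 8 in mouse somas, 11 in BAT cells and 10 in cardiomyocytes. The last intron of the transcript was listed 44, 36, 98 and 44 times.

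Intron length went along with listing. In mouse dendrites introns numbered 30 or higher were listed in 0.679% of cases below 300 nt, 3.56% from 300 to 999 nt, 10.2% from 1000 to 2999 nt, 20.6% from 3000 to 9999 nt, 30.2% from 10000 to 29999 nt and 40% from 30000 to 99999 nt. Between the same end classes BAT cells rose from 3.25% to 38.0%, cardiomyocytes from 2.1% to 30.5% and mouse somas from 0.75% to 26.6%. Of the 3 introns of 100000 nt or more, 2 were listed in mouse dendrites, 2 in BAT cells, 1 in mouse somas and 1 in cardiomyocytes. Introns numbered 30 or higher were also shorter than introns 1 to 29, with medians of 1102 against 1455 nt in transcripts of mouse dendrites. Within a length class below 100000 nt the intervals of the 2 sets overlapped in 5 of 6 classes in mouse dendrites, 6 of 6 in mouse somas, 4 of 6 in BAT cells and 6 of 6 in cardiomyocytes. The exceptions were the class of 1000 to 2999 nt in BAT cells, where introns numbered 30 or higher were listed less often (14.4% against 16.8%), and the class of 30000 to 99999 nt, where they were listed more often in mouse dendrites (40%, 29.3% to 51.7%, against 21.2%, 17.2% to 25.8%) and in BAT cells (38.0%, 27.6% to 49.7%, against 22.8%, 18.7% to 27.5%).

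These longest introns belonged to few genes. Each intron number of a gene was counted once over its transcripts, and only transcripts with a listed intron were taken. In the annotation these hold 73 introns numbered 30 or higher of at least 30000 nt in 34 genes, and listed ones came from 11 of these genes. Over the 4 lists they were found 96 times, of which 39 were in Dmd (13 of its 16 such introns), 12 in Lrp1b and 12 in Gpr98. Vps13b followed with 7, and Itpr2 and Pola1 had 6 each.

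**Figure D5:**
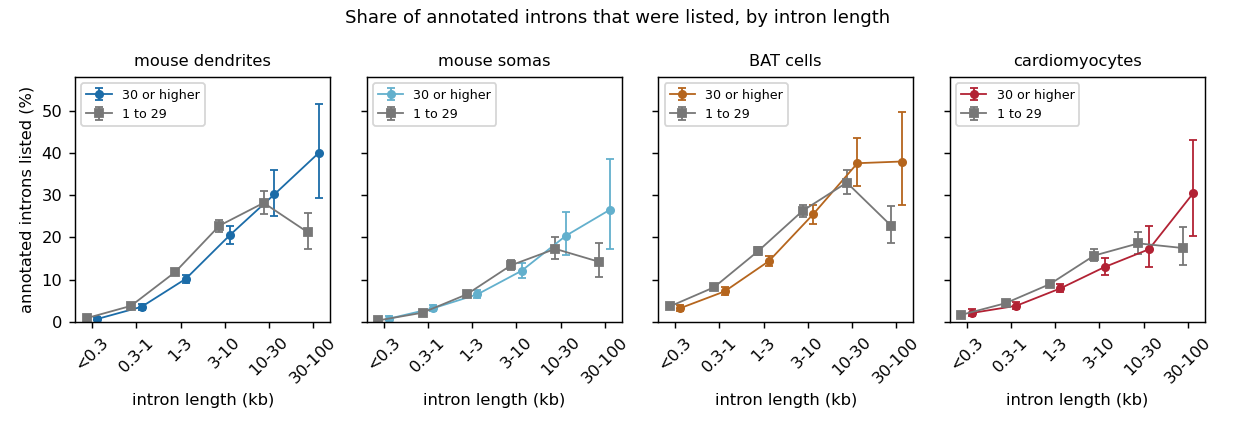
Share of annotated introns that were listed against intron length in kb, one panel per mouse list, with introns numbered 30 or higher as coloured circles and introns 1 to 29 of the same transcripts as grey squares, with 95% Wilson intervals. Both sets rise with length up to 10 kb and lie close together up to 30 kb, and the circles lie above the squares in the class of 30 to 100 kb (40% against 21.2% in mouse dendrites). Introns of 100 kb or more are not drawn.

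Few introns were common to the lists. Of the 2226 distinct mouse introns numbered 30 or higher, 1541 were in 1 list, 500 in 2, 140 in 3 and 45 in all 4. Mouse dendrites and somas shared 180 introns, which were 20.9% of the former and 37.8% of the latter, and BAT cells and cardiomyocytes shared 235 (18.6% and 43.2%). Between the same pairs introns 1 to 29 shared 26.2% and 48.2%, and 26.4% and 60.7%. In the introns shared by mouse dendrites and somas the contigs overlapped in 95 cases (52.8%, 45.5% to 59.9%), and in those shared by BAT cells and cardiomyocytes in 135 (57.4%, 51.1% to 63.6%). Overlapping contigs were found in 58.2% and 65.6% of the introns 1 to 29 shared by the same pairs. The order was the other way between mouse dendrites and cardiomyocytes, at 50.3% (42.4% to 58.3%) against 44.7%, and of the 6 mouse pairs the value for introns 1 to 29 lay outside the interval only between BAT cells and cardiomyocytes. Rat dendrites and somas shared 38 introns (23.6% and 26.6%), with overlapping contigs in 25 (65.8%, against 66.5% for introns 1 to 29).

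The 45 introns found in all 4 mouse lists came from 31 genes. Dmd gave 7 (introns 41, 43, 47, 51, 53, 54 and 57) and Gpr98 gave 4 (59, 83, 85 and 87). Herc1 (67 and 74), Fry (51 and 53), Lrba (34 and 35), Ralgapa1 (32 and 36) and Vps13b (36 and 39) gave 2 each. The others gave 1 each, among them the kinase Atr, the chromatin remodeller Atrx, the kinesin Kif1b, the inositol trisphosphate receptor Itpr2, the synthetase Eprs, the carboxylase Acaca, the ubiquitin ligases Birc6, Herc2 and Mycbp2, the deubiquitinase Usp34, the cytoskeletal linkers Macf1 and Syne1, and Ascc3, Atp8a2, Mllt4, Myo3a, Nav2, Nbas, Reln, Sbf2, Ttc3, Vps13a and Zzef1. Their median annotated length was 10413 nt. Gpr98 intron 83 had 430 reads in mouse dendrites, 77 in mouse somas, 370 in BAT cells and 2923 in cardiomyocytes. Lrba intron 34 had 113, 118, 2246 and 4661, where the contig of cardiomyocytes touched an annotated U6 small nuclear RNA, and Vps13b intron 36 had 49, 368, 117 and 78, so that these introns were above the lowest counts in every list. In contrast, Dmd intron 57 had 103, 2, 148 and 2 reads, and Ralgapa1 intron 32 had 2, 18, 4 and 2.

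A stretch covered by all 4 lists was found in 8 of the 45 introns (17.8%, 9.29% to 31.3%), and in 27.8% of the 1678 introns 1 to 29 found in all 4 lists. They included those of the 5 printed sequences, Myo3a intron 30 and Ttc3 intron 32 (421 nt). Birc6 intron 49 had 37, 91, 24 and 14 reads in mouse dendrites, mouse somas, BAT cells and cardiomyocytes. Mycbp2 intron 52 had 80, 80, 153 and 6. Both introns had their lowest count in cardiomyocytes. Eprs intron 31 had 5, 4, 1081 and 29, Herc1 intron 74 had 13, 584, 36 and 187, Nbas intron 36 had 9, 16, 106 and 33 and Ttc3 intron 32 had 9, 91, 129 and 41.

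Tracts of adenines in the genome can be copied by the poly(T) primer, so their place was examined. The motif was a run of at least 10 A on the strand of the gene within 300 nt of the end of a contig, and a run of at least 10 T for the other strand. Downstream of contigs of introns numbered 30 or higher it was found in 7.16% of cases in mouse dendrites, 18.8% in mouse somas, 7.45% in BAT cells and 11.1% in cardiomyocytes, and upstream in 2.84%, 3.79%, 1.62% and 1.58%. Contigs of introns 1 to 29 had 8.14%, 18.5%, 7.36% and 9.47% downstream. Runs of T lay more often upstream in mouse dendrites (9.9% against 3.24% downstream), mouse somas (10.4% against 3.41%) and BAT cells (8.35% against 3.24%). In cardiomyocytes they stood at 5.06% (3.61% to 7.06%) upstream and 4.11% downstream, which lies within that interval. Adenine runs thus lay more often on the downstream side in every mouse list, most often in mouse somas (15.7% to 22.3%), at shares near those of introns 1 to 29. The part of priming at such runs in the counts was not tested.

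Over whole introns, runs of adenines were more frequent in listed than in unlisted introns. Among introns numbered 30 or higher of 1000 to 9999 nt, a run of at least 10 A stood in 37.2% of the listed and 21.4% of the unlisted ones in mouse dendrites. In mouse somas it was 47.3% against 21.5%, in BAT cells 32.3% against 21.1% and in cardiomyocytes 42.1% against 21.6%. Introns 1 to 29 of the same transcripts had nearly the same shares, with 36.2% against 21.9%, 47.9% against 22.5%, 34.5% against 21% and 45.2% against 22.2% in the same lists. The listed introns were longer within this class, with medians of 2875 against 2004 nt in mouse dendrites, and the part of length was not tested.

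The host genes fell into families of giant proteins. The 15 families drawn up held 2191 of the 3445 introns (63.6%). Counts for the families are given in the order of mouse dendrites, mouse somas, BAT cells and cardiomyocytes, beside 860, 476, 1261 and 544 for the whole set. The spectrin, plakin and nesprin cytoskeleton had 75, 40, 102 and 56 introns, led by Dmd, Utrn, Macf1 and Syne2, and was among the 3 largest families in each of these lists. The giant sarcomere proteins and muscle myosins had 18, 11, 52 and 60, led by Ttn and Neb, and their reads were 3780, 311, 9633 and 85049. Calcium release and voltage-gated calcium channels, led by Ryr2, Itpr1 and Itpr2, had 35, 18, 52 and 44 with 5006, 4155, 7737 and 104029 reads. In cardiomyocytes these 2 families of contraction and calcium release together held 29.6% of the reads, against 7.64% in mouse dendrites. This order rested on Ttn and Ryr2, since the other genes of both families held 1.91% in cardiomyocytes and 7.26% in mouse dendrites. Non-muscle and unconventional myosins, such as Myo9a and Myo5a, had 14, 9, 18 and 9.

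Several families had their lowest counts, and their lowest shares of the set, in cardiomyocytes. Dynein heavy chains and axonemal proteins, such as Dync2h1 and Dnahc8, had 78, 30, 86 and 16. The low-density lipoprotein receptor family, mainly Lrp1b, had 22, 18, 26 and 5, and the ABC transporters, mainly Abca13, had 17, 9, 30 and 4. Collagens, such as Col12a1 and Col19a1, had 38, 18, 56 and 14, and phosphatidylinositol 3-kinase-related kinases, such as Prkdc and Atr, had 26, 13, 36 and 11. The receptor protein tyrosine phosphatases and adhesion receptors, mainly Gpr98, had 22, 10, 26 and 7. As the lists differ in depth and in the number of libraries, these counts describe the lists and were not tested.

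All other families but the GTPase regulators had their lowest share of the set in another list. Giant ubiquitin ligases and deubiquitinases, led by the ligases Mycbp2, Herc1 and Birc6 and the deubiquitinase Usp34, had 50, 43, 119 and 42 (5.81%, 9.03%, 9.44% and 7.72% of the set) and hosted listed introns in 13, 11, 16 and 12 of the 17 family genes with 31 exons or more. The Vps13, BEACH and huntingtin-like scaffold proteins, led by Lrba, Vps13b and Vps13a, had 44, 26, 57 and 25 in 11, 9, 12 and 11 of 13 genes. Of all 749 genes with 31 exons or more, 43.1%, 29.8%, 50.9% and 30.2% were hosts. Not every family lay above this, as the receptor protein tyrosine phosphatases and adhesion receptors had hosts in 4, 5, 8 and 2 of 27 genes. Matrix proteins of the fibrillin and laminin kind, with Reln, Hmcn1 and Lama2, had 53, 28, 59 and 32. The Dock proteins, neurofibromin and other GTPase regulators, such as Ralgapa1, Dock1 and Nf1, had 34, 15, 44 and 15, and chromatin and transcription regulators, such as Chd2 and Nipbl, had 24, 18, 38 and 23. In the rat lists the giant ubiquitin ligases and deubiquitinases had the most introns in both, with 14 in dendrites and 16 in somas, where they took 24.5% of the reads.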

How the data were processed

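RNA of the groups was amplified, sequenced as short pairs and aligned by the authors with RUM to mm9 or rn4. They kept reads that map once and lie in introns, and dropped any intron holding a gene prediction or a known poly(A) site. By their account, introns with an Rfam RNA or with exon-intron junction reads alone were also left out. Neighbouring reads were merged into contigs across the gaps between them. For whole cells their analysis used contigs of at most 400 nt, but the deposited lists hold longer ones, which were kept. The 6 deposited lists hold contig positions and 1 read count per transcript and intron, pooled over libraries, and not normalized. Each count was used once. The 26 libraries have no values of their own, so no test was made. Mouse introns were matched to GENCODE on NCBIM37 by gene name and contig position, with the transcript whose numbered introns held the most contigs. Of 498 host transcripts 476 matched, and 97.5% of the contigs of all 498 lay in the numbered intron, a share this choice raises. The other 22 transcripts, with 102 of the 3141 introns counted in the mouse lists, are left out of listed shares and intron lengths. Matches to the mitochondrial chromosome were found with blastn 2.17.0, and shares and medians with pandas 2.3.3 and scipy 1.17.1. Named introns are the 3 with the most reads and named hosts the 3 with the most introns per list, those in all 4 mouse lists, and examples of 15 families. Members, families, markers and rules were chosen with earlier results of these data known. Shares and medians were tested on simulated data. A few items are not reported here.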

Additional observations from a re-analysis of the deposited data

How the results depend on the processing

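The lists pool their libraries, so no library was left out, and no paired analysis was possible because the lists hold no value per library. Introns with at most 2 reads limit the lower end of every list, and rat introns were not set against an annotation. Of 154 alternative values for 55 results, 81 stayed within the limits set, 67 fell outside them and 6 changed direction. The limit was 1.5-fold for counts, a wide margin, 1 SD over host genes for the mean number of introns per host, and the 95% interval of the reported value for other quantities. The cause of the changes was not tested except where the alternative itself takes away introns. Values follow in the order of mouse dendrites, mouse somas, BAT cells, cardiomyocytes, rat dendrites and rat somas. Starting the set at intron 25 gave 1296, 717, 1954, 830, 277 and 235 introns, and starting it at intron 40 gave 440, 234, 649, 280, 72 and 65. Starting it at intron 35 moved the count in rat somas to 94. With at least 32 reads 362, 224, 560, 343, 47 and 67 introns remained, in 199, 136 and 233 host genes of the first 3 lists and in 42 and 52 of the rat lists. The median contig length was then 366, 411, 392, 430, 522 and 492 nt, and with contigs of at most 400 nt it was 223, 240, 187, 173, 236 and 237 nt. The median reads of introns with a single contig were 16 in mouse dendrites and 16 in BAT cells, and without the 3 host genes with the most reads the median of cardiomyocytes was 66. The median reads of introns numbered 30 or higher divided by that of introns 1 to 29 turned from above 1 to 0.946 in mouse somas, 0.566 in cardiomyocytes and 0.566 in rat somas when the latter came from the same host transcripts, an alternative chosen after seeing the data, as was leaving out Myo3a intron 30. Per 50 nt of contig it turned to 0.973 in rat somas. In transcripts with at least 1 listed intron numbered 30 or higher, the listed share of these introns minus that of introns 1 to 29 was -0.971 percentage points in mouse dendrites and turned to 2.37 in mouse somas and 0.385 in cardiomyocytes. With runs of at least 8 adenines the downstream share was 11.5%, 26.1%, 11.9% and 16.0% in the mouse lists, and within 1000 nt it was 12.3%, 27.1%, 13.4% and 17.1%. By gene symbol and overlapping contigs 8 regions in place of 45 introns were common to the 4 mouse lists.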
